A study of Mus musculus with 6 samples.

Results

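The AP-3 adaptor subunits are a family of 7 genes, Ap3b1, Ap3b2, Ap3d1, Ap3m1, Ap3m2, Ap3s1 and Ap3s2, among the 23621 genes of a table of RNA levels in newborn mouse cortex. Members were taken by gene symbol. The family was chosen by the counts of Ap3m1, which was among the genes called different between the genotypes. The fold changes of the 7 genes are therefore given as a description, with no test. All 7 were listed and all 7 passed the filter on low counts, which kept 16274 genes.

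RNA-seq libraries were made from dissected cortex at postnatal day 0, 3 from wild-type littermates and 3 from Tle4-/- mutants. Both genotypes share a mixed genetic background of the strains C57BL/6J, 129S6 and CD1. Tle4 encodes a co-repressor of transcription of the Groucho family. Its counts in the mutant were 0.480 of those in the wild type (log2 fold change -1.06, SE 0.14), and their place along the gene was not analysed here. The labels do not say that libraries of a genotype came from separate litters, so any p-value measures only the spread between these samples, which may in part be technical. The libraries held 18617408 to 21632607 counts. Mitochondrial genes, counted with their copies on chromosome 1, took 1.86 to 2.13% of the counts in the wild type and 2.50 to 2.66% in the mutant, without overlap. Wild-type libraries had 11 to 37 counts of Xist and mutant libraries 66194 to 79080, and Ddx3y, on the Y chromosome, had 1463, 1891 and 2 counts in wild-type libraries 1 to 3 and 0 to 2 in the mutants. Sex and genotype cannot be told apart across these libraries.

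AP-3 is a coat adaptor of endosomal membranes, built from a delta, a beta, a mu and a sigma subunit. It picks membrane proteins for transport to lysosomes and lysosome-related organelles such as melanosomes and platelet dense granules, and in neurons it also sorts cargo into synaptic vesicles. Ap3d1 encodes the delta subunit, the only one without a second gene. Ap3b1 and Ap3b2 encode the beta subunits, Ap3m1 and Ap3m2 the mu subunits, which bind tyrosine-based sorting signals in cargo tails, and Ap3s1 and Ap3s2 the small sigma subunits. The Ap3b2 and Ap3m2 products form the neuronal version of the complex, while those of Ap3b1 and Ap3m1 are found in most tissues.

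The mu subunits come first, since Ap3m1 is one of them. Their coding sequences have the same length, 1254 bases, and were 73.5% identical, and the longest run of bases they share was 15. Ap3m1 also has a processed pseudogene, Ap3m1-ps (ENSMUSG00000094683), on chromosome 10 from 82585406 to 82587534, which was 99.5% identical to the Ap3m1 coding sequence, with 6 mismatches in 1254 bases and a shared run of 320 bases. A stretch of 60 coding bases, bases 112 to 171 counted from the first base of the Ap3m1 start codon, is shown for the 3 loci. It was picked as the first, aligned without gaps, with a mismatch to the pseudogene in its middle. The stretch is therefore not typical of a short read. It lies in exon 2 of 9 of Ap3m1 (chr14:21045590-21045649, minus strand), in exon 2 of 9 of Ap3m2 (chr8:22803862-22803921, minus strand) and in the single exon of the pseudogene (chr10:82585537-82585596, plus strand). The sequences are from the GENCODE M21 transcripts on GRCm38, written 5′ to 3′, and capitals mark bases that differ from Ap3m1.
Ap3m1: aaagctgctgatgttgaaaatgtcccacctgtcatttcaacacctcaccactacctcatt
Ap3m1-ps: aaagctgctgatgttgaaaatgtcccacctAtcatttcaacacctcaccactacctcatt
Ap3m2: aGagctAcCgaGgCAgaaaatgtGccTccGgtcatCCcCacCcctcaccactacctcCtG

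Over this stretch the pseudogene has 1 mismatch to Ap3m1, which the choice of stretch required, and Ap3m2 has 15. Over whole transcripts, none of the 100-base windows of Ap3m2 occurred in another annotated transcript, on either strand. Of the windows of Ap3m1, 8.62% occurred in the annotated transcript of Ap3m1-ps.

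Ap3m1 was lower in the mutant. The gene (ENSMUSG00000021824) lies on chromosome 14 from 21031442 to 21052508, on the minus strand. In the wild-type libraries 1 to 3 it had 1455, 1956 and 1598 counts, or 74.1, 87.8 and 85.9 CPM (counts scaled to library size with TMM factors). In the mutant libraries 1 to 3 it had 915, 945 and 830 counts, or 42.8, 49.5 and 43.3 CPM. The lowest wild-type library stood well above the highest mutant library, so the genotypes did not overlap. The mean went from 82.6 ± 7.42 to 45.2 ± 3.71 CPM (SD, n = 3 each), which is 0.547 of the wild type, with a 95% interval from the fit of 0.457 to 0.655. The log2 fold change, mutant over wild type, was -0.87 (SE 0.12).

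Ap3m1 was the 1 member of 7 called by edgeR at an adjusted p under the threshold of 0.05, where 0.111% of all genes tested were called, 0.0614% in the lower direction. It was also the 1 member whose genotypes did not overlap, against 7.93% of all genes tested. These values chose the family and nothing is read from them. Leaving out 1 library at a time, the call held only without wild-type replicate 1, with log2 fold changes from -0.94 to -0.82 over the 6 fits. In cortex tissue, fewer cells of a type that contains the RNA and less of it per cell cannot be told apart.

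Ap3m2, the neuronal mu subunit (ENSMUSG00000031539, chromosome 8 from 22787354 to 22805654), had 84.0, 76.9 and 70.1 CPM in the wild type and 84.7, 77.4 and 80.9 CPM in the mutant. The mutant libraries lay inside or just above the wild-type range. Its log2 fold change was 0.07 (SE 0.11), and the 95% interval of the fold ran from 0.891 to 1.24. The genotypes overlapped, and an increase of more than 1.24-fold lies outside that interval.

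**Figure D1:**
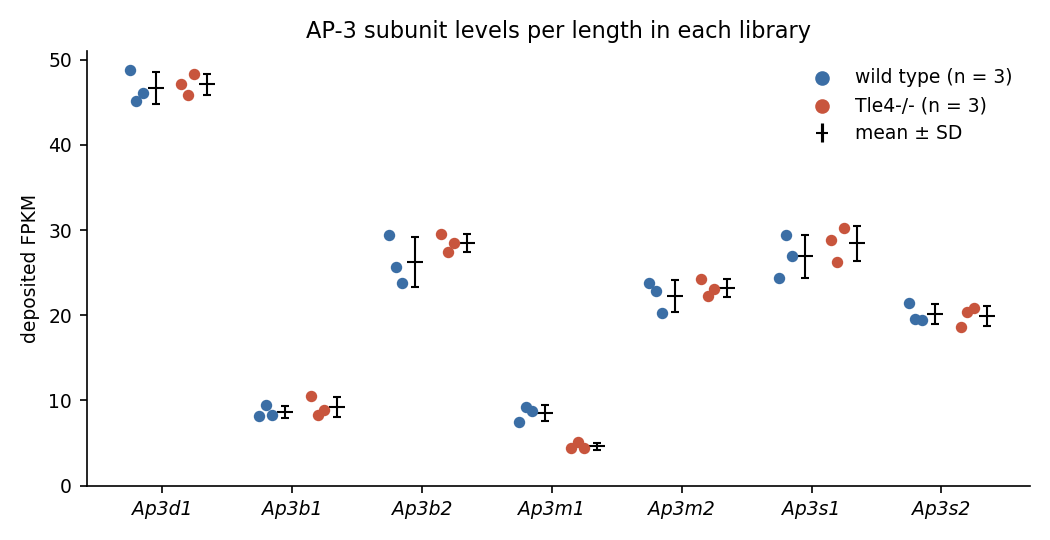
Deposited FPKM (vertical axis, counts scaled to gene length and library size) of the 7 subunits in each library. Points are libraries and black marks are mean ± SD of 3. Ap3m1 is the only subunit whose blue (wild type) and red (mutant) points do not overlap, at 7.46 to 9.29 against 4.38 to 5.07.

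Levels of different genes were compared per length, as the FPKM the authors deposited. In the wild type Ap3d1 stood highest at 46.7 ± 1.88 FPKM (SD, n = 3), above every library of every other subunit. Ap3s1 at 26.9 ± 2.50 and Ap3b2 at 26.3 ± 2.91 came next and overlapped each other. Ap3m2 at 22.3 ± 1.84 and Ap3s2 at 20.1 ± 1.14 overlapped as well. Ap3b1 at 8.63 ± 0.701 and Ap3m1 at 8.52 ± 0.948 were lowest and overlapped, so both subunits of the version found in most tissues stood below their neuronal counterparts. In the mutant Ap3m1, at 4.62 ± 0.393 FPKM, stood below Ap3b1, at 9.22 ± 1.14, in every library. Ap3b2 (28.5) and Ap3s1 (28.4) still overlapped, and Ap3d1 was again highest at 47.1 ± 1.23.

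The order depends on the length behind each FPKM. The deposited FPKM correspond to a fixed length per gene, 9733 bases for Ap3m1 and 7466 for Ap3b2, where their full coding transcripts in GENCODE M21 have 6732 and 3804 bases. With those transcript lengths Ap3m1 came to 12.3 in the wild type and 6.67 in the mutant, and Ap3b2 to 51.6 and 55.9. Ap3m1 then stood above Ap3b1 in the wild type (8.63) and below it in the mutant (9.22). Ap3b2 then replaced Ap3d1 as the subunit with the highest mean. Ap3d1 came to 46.0 ± 1.85 in the wild type, where the libraries of the pair overlapped, and to 46.4 ± 1.21 in the mutant, where every Ap3b2 library was higher. Fold changes between genotypes do not involve the length.

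**Figure D2:**
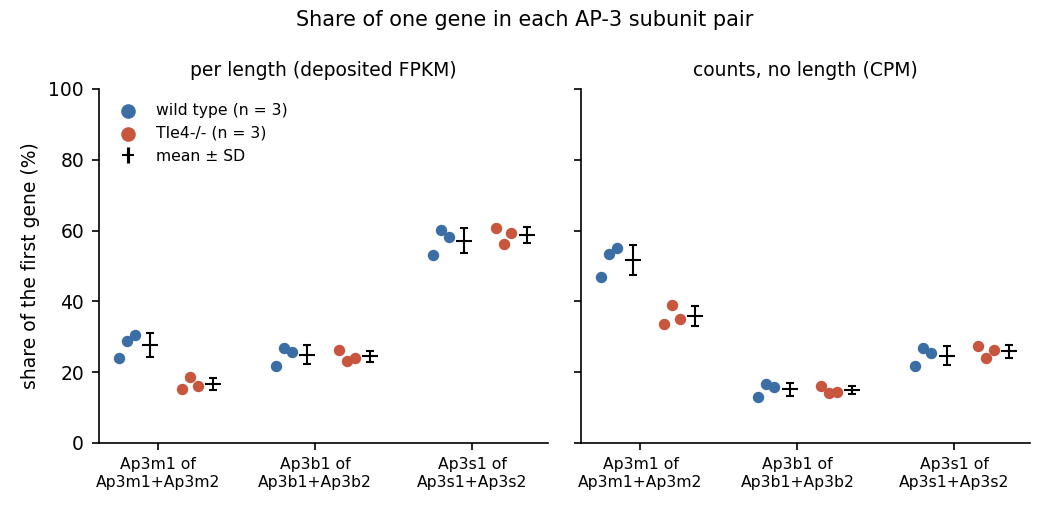
Share of the first gene in each subunit pair, in percent, per library, from deposited FPKM (left) and from CPM without length (right). Points are libraries and black marks are mean ± SD of 3. The mu pair is the one whose genotypes separate, on both scales.

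The makeup of the mu pair followed Ap3m1, and it too is a description. By FPKM, Ap3m1 was 23.9, 28.9 and 30.4% of Ap3m1 plus Ap3m2 in the wild type, and 15.3, 18.5 and 16.0% in the mutant. No mutant library reached a wild-type one, with means of 27.7 ± 3.38% and 16.6 ± 1.72% (SD, n = 3 each). The size of the share depends on length: it was 51.7 against 35.8% from CPM, and 35.3 against 22.1% with the full coding transcript lengths. The mu pair together fell short of the wild type in each mutant library, at 29.0 to 32.1 FPKM in the wild type and 27.3 to 28.7 in the mutant, a ratio of 0.904. On the CPM scale, where the long Ap3m1 transcript weighs more, the ratio was 0.791.

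The large subunits showed no such shift. Ap3d1 (ENSMUSG00000020198, chromosome 10 from 80706978 to 80742211), whose loss removes the complex in the mocha mouse, had 236, 208 and 218 CPM in the wild type and 224, 217 and 231 CPM in the mutant. All mutant values lay inside the wild-type range, and the log2 fold change was 0.02 (SE 0.09). Ap3b1 (ENSMUSG00000021686, chromosome 13 from 94358960 to 94566316), the beta subunit mutated in the pearl mouse, had 33.7, 36.8 and 33.2 CPM in the wild type and 42.4, 33.3 and 36.1 CPM in the mutant. Mutant library 1 was the highest of the 6 and the other mutant libraries lay among the wild types, with a log2 fold change of 0.11 (SE 0.13). Ap3b2 (ENSMUSG00000062444, chromosome 7 from 81460399 to 81493925), the neuronal beta subunit, had 224, 186 and 177 CPM in the wild type and 221, 205 and 215 CPM in the mutant. Wild-type library 1 stood with the mutants and the other wild types stood below them, with a log2 fold change of 0.13 (SE 0.11). Ap3b1 was 24.8 ± 2.68% of the beta pair by FPKM in the wild type and 24.4 ± 1.62% in the mutant.

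The sigma subunits also overlapped. Ap3s1 (ENSMUSG00000024480, chromosome 18 from 46741917 to 46790826) had 36.8, 42.2 and 39.8 CPM in the wild type and 42.9, 38.9 and 45.2 CPM in the mutant, with a log2 fold change of 0.09 (SE 0.12). Ap3s2 (ENSMUSG00000063801, chromosome 7 from 79875325 to 79920649) had 133, 115 and 118 CPM in the wild type and 113, 124 and 127 CPM in the mutant, with a log2 fold change of -0.00 (SE 0.10). Mutant libraries of both genes lay on either side of wild-type ones. Ap3s1 was 57.1 ± 3.54% of the sigma pair by FPKM in the wild type and 58.7 ± 2.34% in the mutant.

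Across the family, 5 members had a log2 fold change above 0 and 2 below, with a median of 0.07, beside a median of -0.01 over all genes tested. In size, 5 of the 7 were under 0.12, the median absolute log2 fold change of all genes tested. The highest library was 2.05 times the lowest for Ap3m1, and 1.13 to 1.28 times for the other 6. Among the 95% intervals of those 6, the widest ran from 0.884 to 1.32-fold, for Ap3b1, so smaller differences could not be resolved with 3 libraries per genotype.

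**Figure D3:**
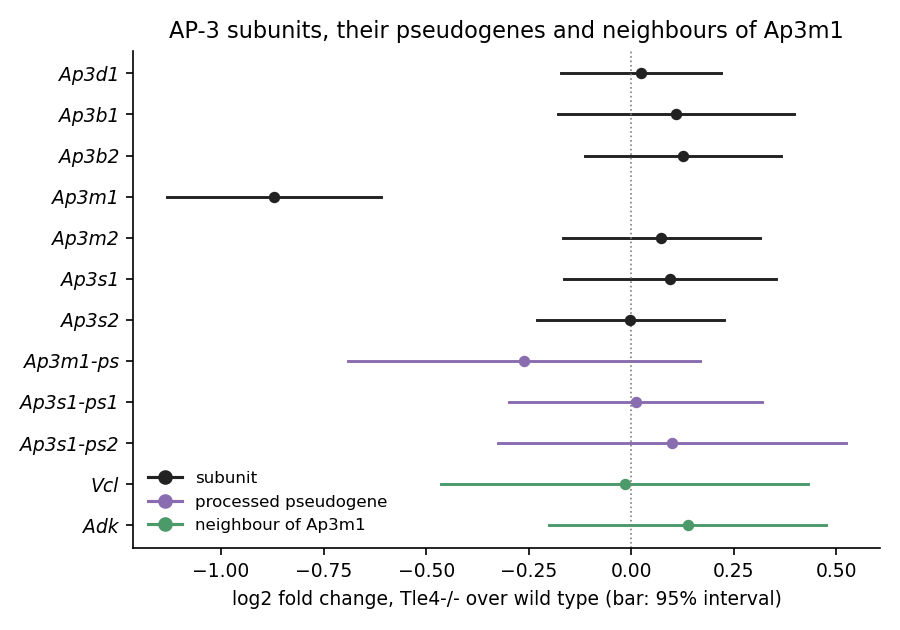
Log2 fold change (mutant over wild type, horizontal axis) of the 7 subunits, the 3 processed pseudogenes and the genes on both sides of Ap3m1. Points are edgeR estimates and bars are 95% intervals from the fit. Ap3m1 stands at -0.87 and the other intervals include 0.

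Pseudogenes and overlapping genes bear on how reads were assigned. Ap3m1-ps had 12.4, 13.0 and 16.5 CPM in the wild type and 13.4, 11.7 and 9.80 CPM in the mutant, with a log2 fold change of -0.26 (SE 0.19) and genotypes that overlapped. Of the 100-base windows of its annotated transcript, which has 1258 bases, 49.4% occurred in Ap3m1, so reads from there cannot be placed by sequence. The listed locus of the pseudogene is longer than that transcript, and its other bases were not compared with Ap3m1. Summed with the pseudogene, Ap3m1 had 86.5, 101 and 102 CPM in the wild type and 56.2, 61.2 and 53.1 CPM in the mutant. The ratio was 0.588, again with no overlap. Ap3m1 itself makes up most of this sum (82.6 of 96.6 CPM in the wild-type mean). The sum is therefore a description and no separate check on how reads were assigned.

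Ap3s1 has processed pseudogenes on chromosome X, Ap3s1-ps1, and on chromosome 8, Ap3s1-ps2, each 99.1% identical to its coding sequence. Ap3s1-ps1 was listed at 36.3 ± 2.71 FPKM in the wild type, above Ap3s1 itself, and at 36.3 ± 2.27 in the mutant. Ap3s1-ps2 had 12.2 ± 0.850 and 13.0 ± 1.45 FPKM. Of the 100-base windows of Ap3s1, 20.9% occurred in the pseudogenes. The level of Ap3s1 per length is therefore uncertain, and the 3 rows together had 66.6 to 69.7 CPM in the wild type and 65.4 to 74.3 in the mutant.

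**Figure D4:**
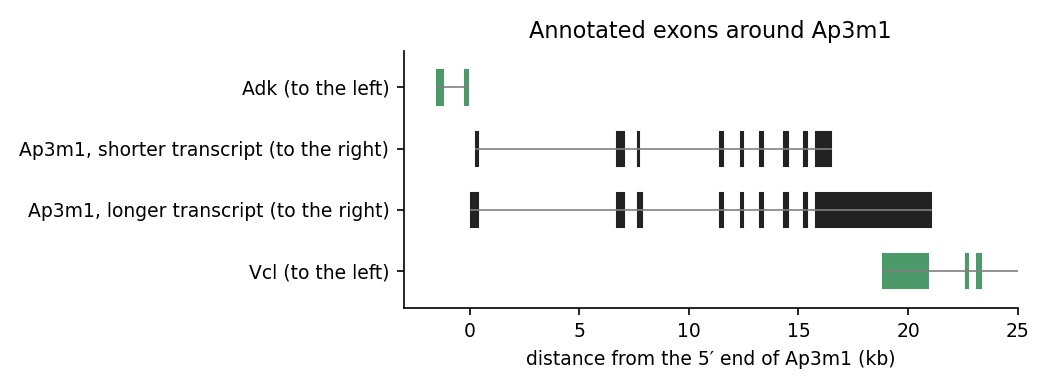
Annotated exons (boxes) of 2 Ap3m1 transcripts and of the genes on both sides, by distance in kb from the 5′ end of the listed Ap3m1 locus along its direction of transcription. Adk starts just upstream and runs away from Ap3m1, and the last exon of Vcl lies inside the last exon of the longer Ap3m1 transcript.

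Ap3m1 lies between a pair of genes on the opposite strand. Vcl (ENSMUSG00000021823, chromosome 14 from 20929433 to 21033673), which encodes vinculin of cell adhesion sites, meets it tail to tail, and the loci overlap by 2232 bases. The shared exon sequence is 2090 bases, 29.8% of the annotated exon length of Ap3m1, all of it in the last exon of the longer Ap3m1 transcript. Whether counting used the strand is not given in the sources used here, so reads in the overlap cannot be told apart. Vcl had 26.2, 20.5 and 15.3 CPM in the wild type and 18.3, 21.0 and 22.0 CPM in the mutant, with a log2 fold change of -0.02 (SE 0.20). Its genotypes overlapped, and in every library it had fewer counts than Ap3m1.

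Adk (ENSMUSG00000039197, chromosome 14 from 21052574 to 21448568), which encodes adenosine kinase, starts head to head with Ap3m1. It had 25.8, 27.2 and 22.1 CPM in the wild type and 32.1, 26.0 and 24.5 CPM in the mutant, a log2 fold change of 0.14 (SE 0.15) with overlapping genotypes. On the far side of Vcl, Plau, a secreted protease, had 6 to 17 counts in each library. The other subunit overlapped by a listed gene was Ap3s2, whose antisense partner Gm26646 had 0 or 1 counts in each library.

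The gap between the annotated starts of Ap3m1 and Adk is 65 bases, and it is shown because Ap3m1, on one side of it, was called and Adk, on the other, was not (the difference between their fold changes was not tested). It is chr14:21052509-21052573 of GRCm38.p6, from RefSeq, written on the minus strand, in the direction of Ap3m1. Capitals mark matches to GGGCGG or its reverse complement, CCGCCC, and to CCAAT, searched on both strands. One CCAAT match overlaps a CCGCCC match.
between Ap3m1 and Adk: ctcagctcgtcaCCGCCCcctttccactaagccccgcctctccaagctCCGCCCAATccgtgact

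The gap holds 2 matches to GGGCGG, 1 to CCAAT and 5 CG dinucleotides, and 64.6% of its bases are G or C. Promoter windows of 300 bases around the start were given by RefSeq for 5 members. GGGCGG occurred in 3 of them (Ap3b1, Ap3b2 and Ap3m1) and in 35.7% of all 32851 promoters. CCAAT occurred in 2 (Ap3d1 and Ap3m1) and in 37.4% of all. CTTTGA, the core of the TCF/LEF motif, occurred in 1 (Ap3d1) and in 16.0% of all. TATAAA and CACGTG were in none of the 5, and in 13.6% and 7.15% of all promoters. A match here is a run of letters and not a measured binding site.

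Genes that work with AP-3 or resemble it were followed as 9 lists of 54 genes, of which 53 were tested. By edgeR 0 of the 53 passed the adjusted threshold, and 2 had an unadjusted p under 0.05, Ap1m2 and Slc32a1, beside 561 of the 16274 genes tested, a like share. DESeq2 and limma-voom likewise called 0. Log2 fold changes were above 0 for 23 genes and below 0 for 30, with a median of -0.03. The genotypes did not overlap for 7 of them, or 13.2%, beside the 7.93% of all genes tested.

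**Figure D5:**
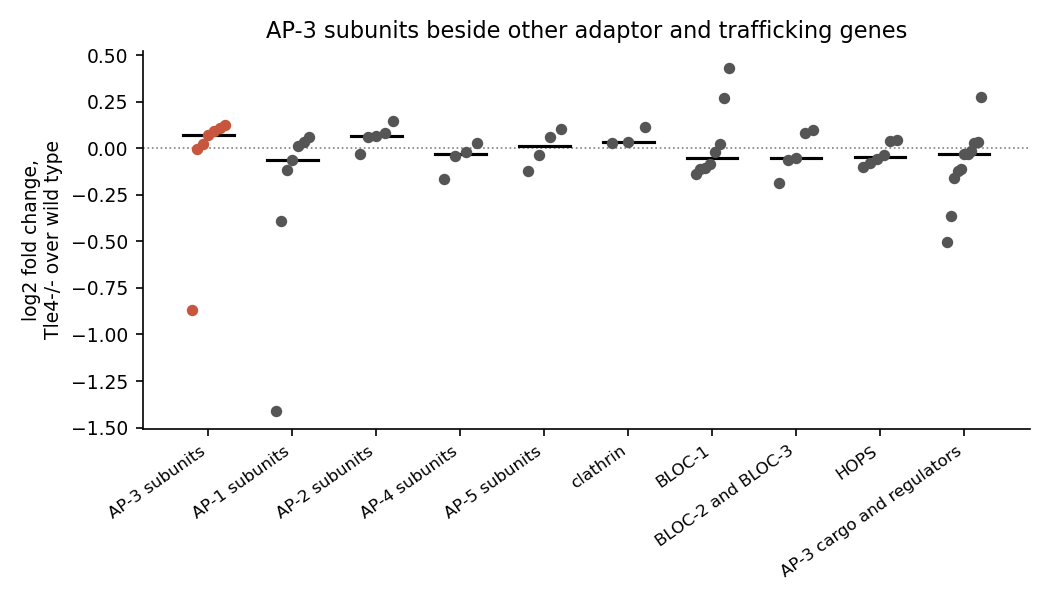
Log2 fold change (mutant over wild type, vertical axis) of the AP-3 subunits (red) and of the genes of 9 lists (grey), with the list median as a bar. No grey point passed the adjusted threshold, and Ap1m2, at -1.41, had 5 to 29 counts per library.

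The other adaptor complexes gave list medians near 0. AP-1, which sorts at the trans-Golgi network and endosomes, had a median log2 fold change of -0.06 over 7 tested genes. Its epithelial mu subunit Ap1m2 had 0.938 ± 0.320 CPM in the wild type and 0.349 ± 0.0808 in the mutant, a log2 fold change of -1.41 (SE 0.43; edgeR adjusted p = 0.9996). Ap1g2, a gamma subunit, had 23.7 ± 3.37 and 18.1 ± 4.19 CPM, a log2 fold change of -0.39 (SE 0.20; edgeR adjusted p = 0.9996). AP-2, the adaptor of endocytosis at the plasma membrane, had a median of 0.06 over 5 genes, with Ap2b1 at 351 ± 30.7 and 389 ± 13.2 CPM and Ap2s1 at 95.7 ± 9.68 and 101 ± 1.64 CPM. AP-4, which exports cargo such as the autophagy protein ATG9A from the trans-Golgi network, had a median of -0.03 over 4 genes, with Ap4m1 at 48.4 ± 1.95 and 43.1 ± 4.56 CPM and Ap4s1 at 17.9 ± 0.614 and 17.4 ± 0.858 CPM. AP-5, a late endosomal adaptor, had a median of 0.01 over 4 genes, with Ap5z1 at 27.9 ± 3.78 and 30.0 ± 1.71 CPM and Ap5m1 at 20.1 ± 1.99 and 18.4 ± 4.37 CPM.

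Clathrin, the coat protein that AP-1 and AP-2 recruit, had a median of 0.04 over 3 genes. The light chain gene Cltb had 109 ± 2.91 and 118 ± 3.06 CPM, with every mutant library above every wild type (log2 fold change 0.11, SE 0.09), and the heavy chain gene Cltc had 568 ± 17.6 and 582 ± 8.79 CPM. BLOC-1, an endosomal complex that acts with AP-3 in making lysosome-related organelles, had a median of -0.05 over 8 genes. Bloc1s1 had 13.2 ± 4.18 and 17.8 ± 2.36 CPM, with every mutant library above every wild type (log2 fold change 0.43, SE 0.24). Another BLOC-1 gene had every mutant library below every wild type. Dtnbp1, which encodes dysbindin, had 22.5 ± 6.57 and 27.1 ± 0.577 CPM (0.27, SE 0.20). BLOC-2 and BLOC-3, later steps of the same pathway, had a median of -0.05 over 5 genes, with Hps5 at 36.0 ± 1.93 and 31.6 ± 2.45 CPM and Hps4 at 20.8 ± 2.23 and 22.2 ± 3.75 CPM. HOPS, the tether of late endosomes and lysosomes, had a median of -0.05 over 6 genes, with Vps16 at 90.3 ± 9.49 and 85.5 ± 4.84 CPM and Vps18 at 44.3 ± 7.36 and 41.3 ± 5.34 CPM. The edgeR adjusted p of each gene named here was 0.9996.

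The last list held cargo proteins and regulators of AP-3, 11 genes with a median of -0.03, of which 3 were above 0 and 8 below. Slc32a1, the vesicular transporter of GABA, had 37.0, 36.0 and 42.6 CPM in the wild type and 31.7, 29.1 and 28.9 CPM in the mutant. Its genotypes did not overlap, with a log2 fold change of -0.36 (SE 0.12, edgeR adjusted p = 0.9996). Slc32a1 also marks inhibitory neurons: the summed level of 9 interneuron markers, Slc32a1 included, was 549 to 592 CPM in the wild type and 479 to 554 in the mutant, 8 of the 9 were below 0, and their part in the Slc32a1 difference was not tested. Slc30a3, the zinc transporter ZnT3 that AP-3 brings to synaptic vesicles, had only 1.63 ± 0.436 and 1.15 ± 0.188 CPM at this age, a log2 fold change of -0.51 (SE 0.34; edgeR adjusted p = 0.9996).

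The tissue label was checked against marker genes. The 9 markers of cortex neurons summed to 4686 to 5547 CPM in the wild type and 4988 to 5398 in the mutant. Markers of striatum, which borders the dissection, summed to 204 to 293 CPM in the wild type and 161 to 208 in the mutant, and 11 of the 12 were below 0. Markers of the oligodendrocyte lineage summed to 247 to 278 and 285 to 316 CPM, without overlap, and 5 of 5 were above 0. Also above 0 were 7 of 8 radial glia, 4 of 5 endothelial and 4 of 4 tested red cell markers. All 6 microglia markers were below 0. Sums of the radial glia, endothelial, red cell and microglia lists overlapped between the genotypes. Meninges markers ranged from 36.3 to 697 CPM within the wild type and from 275 to 546 in the mutant. Choroid plexus markers summed to 1.58 to 7.41 CPM in 5 libraries and to 102 CPM in mutant library 3, where Ttr had 1789 counts against 1 to 5 in the others, and all 3 that were tested were above 0. No marker of these lists was at 0 in every library. Without mutant library 3 the log2 fold change of Ap3m1 was -0.84, and 8 genes in all were called in place of 18, Ap3m1 not among them. The part of these cell types, and of the mitochondrial share, in the Ap3m1 difference was not tested. Wild-type library 3 had neither the high Xist of the mutants nor the high Ddx3y of wild-type libraries 1 and 2. Ap3m1 had 85.9 CPM in wild-type library 3, and 74.1 and 87.8 CPM in wild-type libraries 1 and 2.

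Among 9768 protein-coding genes with a mean of at least 10 CPM, those most like Ap3m1 across the 6 libraries by Pearson correlation of log2 CPM were Pitpnc1 (r = 0.997), Ube2q1 (0.985), Ctgf (0.984), Ube2l3 (0.978) and Sh3gl2 (0.977). All 5 had lower means in the mutant, and since the 6 libraries form 2 genotypes, these values rest in part on that contrast. The changes differed in size: Pitpnc1, a phosphatidylinositol transfer protein, had 105 and 93.4 CPM, while Sh3gl2, a presynaptic endocytic protein, had 152 and 55.0 CPM. The genes most like Ap3m2 were Tspyl5 and Gpr162 (0.996 each), those most like Ap3b2 were Gtf3c1 (0.992) and Anp32a (0.991), and those most like Ap3s2 were Wbscr16 (0.997) and Copg1 (0.989), a coat protein of Golgi vesicles. Among the subunits, the neuronal pair Ap3m2 and Ap3b2 had the highest correlation, 0.94 over the 6 libraries, and Ap3m1 with Ap3b2 the lowest, -0.68. These are descriptions of 6 libraries whose values share depth and scaling.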

How the data were processed

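Cortex RNA of 3 wild-type and 3 Tle4-/- samples was measured by RNA-seq, and the authors deposited 1 gene table. Per the file headers, its columns are whole-number counts and FPKM for every library, mean FPKM per genotype, and the authors' p-value and adjusted p-value, which were not used. HISAT2 2.0.4, StringTie and edgeR, with GRCm38.p4 and mm10 as builds, are named in the submitters' processing notes. Not given in the sources used here are trimming, the counting program, its annotation and its use of strand. A spreadsheet had turned 25 symbols into dates, and these were restored from gene IDs.

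Counts were fitted across all genes with edgeR 4.0.16 in R 4.3.3 (filterByExpr, TMM, robust quasi-likelihood test, Benjamini-Hochberg adjustment, threshold 0.05). The SE was taken as the size of the log2 fold change divided by the root of the F value. The steps were tested on simulated data. The members and gene lists were chosen with earlier results of these data known. Gene coordinates were read from the table (GRCm38). Lengths, exons and coding sequences came from GENCODE M21 and promoters from RefSeq.

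Named genes are the 7 subunits, listed genes overlapping them, the nearest genes on both sides of Ap3m1, the 2 genes of each list with the smallest p, the genes most correlated with Ap3m1 and with Ap3m2, Ap3b2 and Ap3s2, and Tle4, Xist and Ddx3y. The pseudogenes of Ap3m1 and Ap3s1 and the motifs were added after the data were seen. Alternatives were DESeq2 1.42.0 size factors and Wald test, limma-voom (limma 3.58.1), other filters and a replicate block. Further ones were fits without X and Y genes, without mitochondrial rows and their chromosome 1 copies, and leaving out 1 library. The last were FPKM means, shares without length and, chosen after seeing the data, full coding transcript lengths.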

Additional observations from a re-analysis of the deposited data

How the results depend on the processing

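Over the alternatives run, the log2 fold change of Ap3m1 stayed between -0.94 and -0.82 and those of the other 6 subunits between -0.04 and 0.23. All 98 such values were within 1 SD between replicates of the reported one. The alternatives reuse the same 6 libraries or leave out 1 of them. Such closeness was therefore largely fixed in advance and does not measure robustness. The number of genes called was 18 in the reported fit, 58 by the DESeq2 Wald test, and 8 to 19 when 1 library was left out, with 8 without mutant replicate 3. Ap3m1 was among the called genes in 1 of the 6 fits that leave out a library, in 7 of 7 other settings and not with the replicate block. That call chose the family and these settings rest on the same libraries, so its return in them is no separate evidence. Same-numbered libraries deviated together with correlations of -0.08, 0.11 and -0.02. These values showed no pairing by replicate number, but with 3 libraries per genotype they cannot exclude one. The replicate block, which spends degrees of freedom on the replicate numbers, gave 9 called genes. The share of Ap3m1 in the mu pair was 51.7% in the wild type and 35.8% in the mutant without length, and 35.3% and 22.1% with full coding transcript lengths, which also put the wild-type level of Ap3m1 at 12.3 in place of 8.52. The order of the subunits therefore depends on the length used, which the fold changes between genotypes do not involve. With 3 libraries per genotype, differences inside the intervals given for each subunit could not be resolved.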
